A study of Mus musculus with 18 samples.

Results

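Nodal, Gdf3, Tdgf1, Lefty1, Lefty2 and Smad7 encode ligands, a co-receptor and inhibitors of the Nodal pathway. These 6 genes were picked by gene symbol out of 34850 genes with a value, and their level was read in every library. Nodal and Gdf3 are secreted ligands of the TGF-beta family, Tdgf1 (Cripto) is the membrane-anchored co-receptor that Nodal needs, Lefty1 and Lefty2 are secreted antagonists, and Smad7 is an intracellular inhibitor of the receptors. Of the 6, 5 were among the 9561 genes tested, and Smad7 was too low to be tested.

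Nodal binds type I and type II activin receptors together with Tdgf1, and the receptors phosphorylate Smad2 and Smad3, which enter the nucleus with Smad4 and act with partners such as Foxh1. Nodal, Lefty1, Lefty2 and Smad7 are themselves known targets of this signal, so the pathway induces its own ligand and its own inhibitors. It patterns the early embryo and holds epiblast cells in their pluripotent state, and Activin, which acts through the same Smads, is used to make and keep epiblast-like cells in culture.

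The study measured gene expression in mouse germ cell precursors in culture, by SC3-seq, which sequences the 3′ ends of transcripts after amplification from 1 ng of RNA. Primordial germ cell-like cells (PGCLCs) are derived from embryonic stem cells (ESCs) through an intermediate, epiblast-like cells (EpiLCs), and resemble the early germ cells of the embryo. The design text names Cyclosporin A, an inhibitor of calcineurin, and FGF signaling as supports of PGCLC culture. There were 18 libraries in 9 groups of 2 replicates.

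ESCs were grown with LIF at 1000 U/ml and 2 inhibitors, PD0325901 against MEK and CHIR99021 against GSK3. EpiLCs were taken on day 2 after Activin A at 20 ng/ml and FGF2 at 12 ng/ml. Day-4 PGCLCs (d4 PGCLC) had been induced for 4 days with BMP4 at 500 ng/ml, LIF at 1000 U/ml, SCF at 100 ng/ml and EGF. These 3 groups were of strain C57BL/6. PGCLCs of strain B6D2F1 were cultured for 7 further days on m220-5 feeder cells (d4c7) in 4 conditions, named FR10, CsA, FGF10 and FGF2 in the labels. FR10 held forskolin at 10 µM with rolipram, which both raise cyclic AMP, and SCF at 100 ng/ml. The sources used here give neither the doses of CsA and of the FGFs nor whether those cultures held forskolin and rolipram. All 7 groups so far carried the Blimp1-mVenus and Stella-ECFP reporters. ESCs and EpiLCs were unsorted, and the PGCLCs were sorted for mVenus, so Blimp1 (Prdm1) expression was part of their selection. Germ cells of E9.5 embryos, from a B6D2F1 x C57BL/6 cross that carried Stella-EGFP, were kept for 5 days in FR10 or CsA (E9.5c5) and sorted for EGFP. For the cultured groups the labels call the replicates biological. Nothing says that the replicates of ESCs, EpiLCs or d4 PGCLCs came from separate cultures, so the p-values there measure only the spread between these samples, which may be technical.

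Levels are in RPM, the number of reads of a gene after scaling each library to the same total. Because each transcript is read at its end, an RPM value is not scaled to transcript length, and levels of different genes can be set side by side only as read numbers. The RPM of 1 read was taken as the most frequent low value of a library, then refined over whole multiples of it. Depth inferred from it was 2129399 to 7547670 reads per library, and 3 reads corresponded to 0.397 to 1.41 RPM. The median absolute log2 difference between the 2 replicates of a group was 0.193 in ESCs, and among cultured groups it reached 0.601 in E9.5c5 CsA, 0.468 in d4c7 FGF2 and 0.426 in E9.5c5 FR10. The spread of a pair does not tell which of its replicates deviates, so calls were also made without the 3 libraries numbered 2 of these groups and, separately, without the 3 numbered 1, both added after seeing the data. Of 8 germ cell markers, Dppa3 (Stella) and Prdm1 are the genes behind the reporters. The other 6 summed to 808 to 852 RPM in d4 PGCLCs, 289 to 630 RPM in d4c7 cells and 415 to 567 RPM in E9.5c5 cells. Their sum was 15.9 to 17.1 RPM in EpiLCs but 216 to 226 RPM in ESCs, so it is not specific to germ cells. Dppa3, taken by itself, went the other way from this sum among the germ cell groups. It stood at 628 to 771 RPM in d4 PGCLCs and 666 to 1620 RPM in d4c7 cells. E9.5c5 cells, which were sorted on it, held 2349 to 3691 RPM. The sum does not show how each of the 6 genes moved. The 4 later germ cell markers summed to 11.3 to 18.5 RPM in d4 PGCLCs, 859 to 1003 RPM in d4c7 FR10 and 134 to 804 RPM in E9.5c5 FR10. They also gave 25.4 to 26.5 RPM in ESCs and 118 to 124 RPM in EpiLCs. The sum of 7 epiblast markers was highest in EpiLCs, at 2348 to 2437 RPM, and 8 naive markers summed to 1871 to 1886 RPM in ESCs. Fold changes below are log2 differences of RPM + 1 with standard errors from limma, fitted to all 18 libraries, and a change was called at a Benjamini-Hochberg adjusted p under 0.05 over the 9561 genes. With 1 RPM added, they understate the change of genes near that level.

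**Figure D1:**
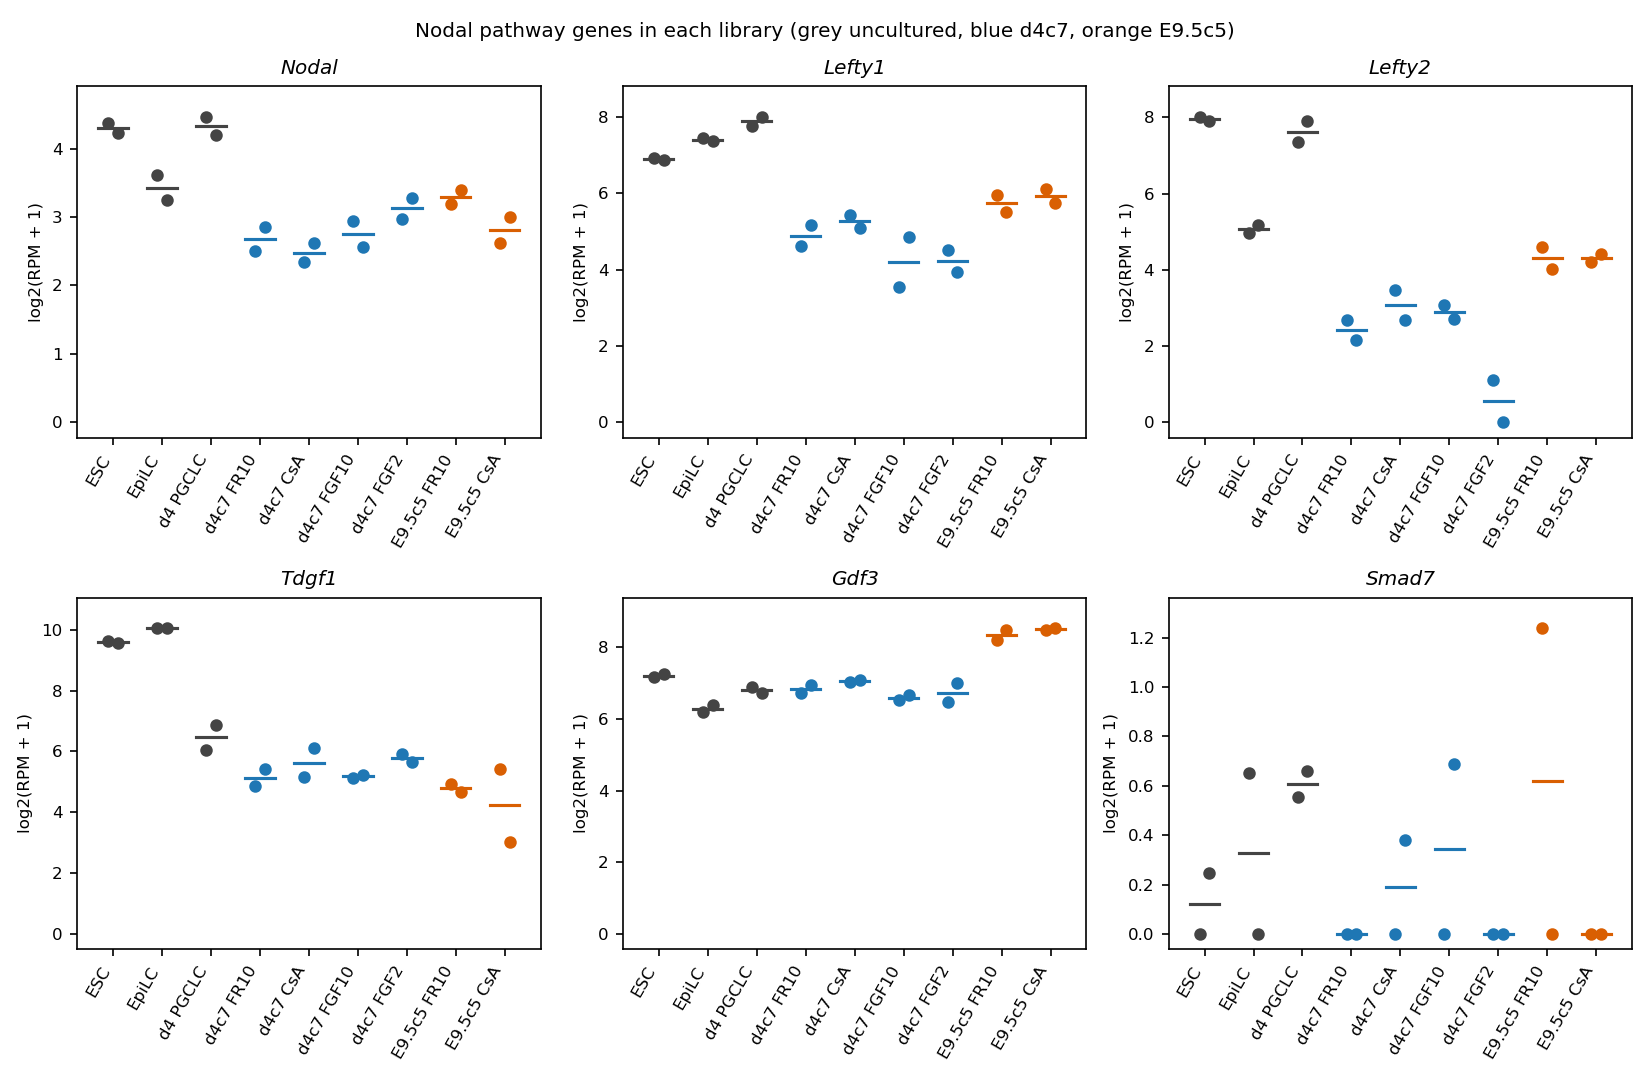
Level of the 6 genes in each library, as log2(RPM + 1) on the vertical axis, by group on the horizontal axis. Each point is 1 library and each bar the mean of the 2 libraries of a group. Lefty1, Lefty2 and Nodal stood lower in all 8 d4c7 libraries than in both d4 PGCLC libraries, Gdf3 was highest in the 4 E9.5c5 libraries, and Smad7 lay near 0 in every library.

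Nodal was read at low levels throughout. It stood at 19.7 and 17.8 RPM in ESCs, at 11.2 and 8.51 RPM in EpiLCs and at 21.1 and 17.4 RPM in d4 PGCLCs. In d4c7 cells it was 4.65 and 6.21 RPM in FR10, 4.05 and 5.14 RPM in CsA, 6.67 and 4.90 RPM in FGF10, and 6.85 and 8.75 RPM in FGF2. The E9.5c5 libraries held 8.17 and 9.54 RPM in FR10 and 5.12 and 6.98 RPM in CsA. Both ESC and both d4 PGCLC libraries were above all others, EpiLCs had the next highest mean, and the ranges of neighbouring groups overlapped from EpiLCs down to d4c7 CsA.

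Across the 2 steps before culture, Nodal differed from ESCs to EpiLCs by a log2 fold change of -0.87 ± 0.38 (SE, n = 2 against 2; limma adjusted p = 0.14), and from EpiLCs to d4 PGCLCs by 0.90 ± 0.38 (adjusted p = 0.069). Neither was called as deposited. The first was called in 1 of 12 alternative settings, with 10 RPM added in place of 1 (adjusted p = 0.046). The second was called in 4 of 12, with the lowest adjusted p, 0.018, also with 10 RPM added, and after median-ratio scaling it was 0.56 (adjusted p = 0.31). Nodal fell from d4 PGCLCs to d4c7 FR10 (mean 19.3 ± 2.65 against 5.43 ± 1.11 RPM, SD, n = 2 each), with a log2 fold change of -1.66 ± 0.38 and a limma adjusted p of 0.0070. That call was lost without d4 PGCLC replicate 1 (adjusted p = 0.077) or without d4c7 FR10 replicate 1 (adjusted p = 0.063). Strain and the presence of feeder cells differed between these groups in the same way as culture, and these cannot be told apart. In sorted or unsorted bulk samples, fewer cells that express a gene and less RNA per cell cannot be told apart either.

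Gdf3, a ligand that acts through the same receptors and can also bind BMPs, had another order of levels. It was read at 142 and 151 RPM in ESCs, 71.6 and 83.2 RPM in EpiLCs, and 117 and 105 RPM in d4 PGCLCs. The d4c7 libraries held 105 and 122 RPM in FR10, 129 and 134 RPM in CsA, 91.6 and 100.4 RPM in FGF10, and 87.9 and 126 RPM in FGF2. In E9.5c5 cells it stood at 294 and 358 RPM in FR10 and at 355 and 370 RPM in CsA. The 4 E9.5c5 libraries were the highest of the 18 and the 2 EpiLC libraries the lowest.

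Gdf3 fell from ESCs to EpiLCs, with a log2 fold change of -0.92 ± 0.20 (limma adjusted p = 0.0035), and was called higher in d4 PGCLCs than in EpiLCs, with 0.52 ± 0.20 (adjusted p = 0.046). The second change was not called after median-ratio scaling, which gave 0.15 (adjusted p = 0.64). The median log2 fold change of all 9561 genes between d4 PGCLCs and EpiLCs was 0.34 as deposited. Between d4 PGCLCs and ESCs Gdf3 had -0.40 ± 0.20 and was not called (adjusted p = 0.13), but it was called in 4 of 13 alternative settings, among them median-ratio scaling, at -0.76 (adjusted p = 0.016). Between d4 PGCLCs and d4c7 FR10 the log2 fold change of Gdf3 was 0.03 ± 0.20 (95% interval -0.39 to 0.45), while Nodal, Lefty1 and Lefty2 fell.

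Cultured germ cells of E9.5 embryos held more Gdf3 than cultured PGCLCs in the same FR10 medium. The means were 326 ± 45.6 and 114 ± 11.7 RPM (SD, n = 2 each), a log2 fold change of 1.51 ± 0.20 (95% interval 1.09 to 1.93; limma adjusted p = 0.0072). Only 4 genes, or 0.0418% of those tested, were called by limma in this comparison, 0.0314% of those tested being higher, and Gdf3 had the smallest p. The others, named because they were so few, were Phlda2 and Rpl29, both higher, and Pfn1, lower in E9.5c5 cells. The Gdf3 call was lost without d4c7 FR10 replicate 1 (adjusted p = 0.37), d4c7 FR10 replicate 2 (0.083) or E9.5c5 FR10 replicate 2 (0.33), and with only these 4 libraries in the fit (0.39). The estimate stayed between 1.37 and 1.69 in all 13 alternative settings. Source, reporter, strain and days of culture all differed between the groups and cannot be told apart.

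Tdgf1, the co-receptor, gave the most reads of the 6 genes in ESCs and EpiLCs. Its level was 785 and 749 RPM in ESCs, 1055 and 1062 RPM in EpiLCs, and 65.3 and 116 RPM in d4 PGCLCs. In d4c7 cells it was 27.9 and 41.8 RPM in FR10, 34.7 and 67.7 RPM in CsA, 34.1 and 36.4 RPM in FGF10, and 58.6 and 48.8 RPM in FGF2. E9.5c5 libraries had 29.3 and 24.4 RPM in FR10, and 41.9 and 7.16 RPM in CsA. The 4 unsorted libraries were far above the other 14, and the ratio between replicates was largest in E9.5c5 CsA.

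From EpiLCs to d4 PGCLCs Tdgf1 fell by a log2 fold change of -3.59 ± 0.51 (limma adjusted p = 4.50e-05), and from ESCs to d4 PGCLCs by -3.12 ± 0.51 (adjusted p = 0.00020). Both calls held after median-ratio scaling, at -3.96 and -3.48. The difference between EpiLCs and ESCs was not called, with 0.46 ± 0.51 (adjusted p = 0.63). From d4 PGCLCs to d4c7 FR10 the estimate was -1.33 ± 0.51 (adjusted p = 0.095). It was called without the 3 libraries numbered 2 (adjusted p = 0.00074) or those numbered 1 (0.00079), with 10 RPM added in place of 1 (0.041) and with only these 2 groups in the fit (0.020).

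Mouse Tdgf1 has pseudogene copies in the genome. The last 500 bases of its transcript shared no run longer than 9 bases with those annotated as Tdgf1-ps1 or Tdgf1-ps2. These entries are only 513 and 505 bases long. The comparison therefore cannot show whether the copies in the genome extend into sequence like the 3′ end of Tdgf1. RefSeq promoter windows (assembly GRCm38.p6) were at hand for Tdgf1 and Nodal, and the 250 bases before each gene start are shown because the 2 proteins act in one receptor complex. The capitals mark the letters GGGCGTGG, a GC box of KLF and SP factors, searched on both strands.
Tdgf1, chr9:110946159-110946408, minus strand: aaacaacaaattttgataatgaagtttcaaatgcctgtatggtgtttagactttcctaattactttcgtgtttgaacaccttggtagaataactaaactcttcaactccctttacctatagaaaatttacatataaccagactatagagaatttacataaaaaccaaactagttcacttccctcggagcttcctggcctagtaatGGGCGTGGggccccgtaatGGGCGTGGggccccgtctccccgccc
Nodal, chr10:61417722-61417971, plus strand: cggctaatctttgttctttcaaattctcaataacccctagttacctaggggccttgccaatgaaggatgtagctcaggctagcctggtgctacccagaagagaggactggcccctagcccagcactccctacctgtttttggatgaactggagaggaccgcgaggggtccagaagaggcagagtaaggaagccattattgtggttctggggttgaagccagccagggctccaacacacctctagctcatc
The Tdgf1 window held the motif 2 times, starting 45 and 26 bases before the gene start, and the Nodal window held none. Of 32851 windows of this length, 4.79% held it at least once. Neither window held the Foxh1 motif AATNCACA (in 3.18% of windows), the octamer ATGCAAAT (1.60%) or the Smad element GTCTAGAC (0.167%). A match describes the letters in the window and not a bound site.

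The 2 Lefty genes are near neighbours on chromosome 1 (GRCm38.p6), Lefty2 at 180893108 to 180899107 and Lefty1 at 180935022 to 180938401. Their coding sequences (GENCODE M21, GRCm38), 1104 bases each, were 91.8% identical. The last 500 bases of the 2 transcripts, from which SC3-seq reads come, shared no run longer than 8 bases, although the last 500 bases of Lefty1 shared a run of 60 with a more upstream part of Lefty2. The sources used here do not say how reads that match both genes were assigned.

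Lefty1 was highest before culture. Its level was 121 and 116 RPM in ESCs, 174 and 164 RPM in EpiLCs, and 217 and 258 RPM in d4 PGCLCs. The d4c7 libraries held 23.6 and 34.9 RPM in FR10, 42.3 and 33.2 RPM in CsA, 10.8 and 27.8 RPM in FGF10, and 22.1 and 14.3 RPM in FGF2. In E9.5c5 cells it was 61.2 and 44.7 RPM in FR10, and 68.7 and 53.0 RPM in CsA. The 3 uncultured groups followed each other without overlap, all E9.5c5 libraries lay below them, and all d4c7 libraries lay below those.

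Lefty1 fell from d4 PGCLCs to d4c7 FR10 by a log2 fold change of -3.0 ± 0.35 (limma adjusted p = 3.02e-05). It was called higher in d4 PGCLCs than in ESCs, with 0.99 ± 0.35 (adjusted p = 0.038), but not after median-ratio scaling (0.63, adjusted p = 0.16), without a filter on low values, or when any 1 of the 4 libraries compared was left out. The median log2 fold change of all genes in that comparison was 0.34. Neither single step, from ESCs to EpiLCs (0.51 ± 0.35) or from EpiLCs to d4 PGCLCs (0.48 ± 0.35), was called for Lefty1.

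Lefty2 was lower in EpiLCs than in the stages before and after them. It stood at 259 and 237 RPM in ESCs, 30.5 and 35.2 RPM in EpiLCs, and 162 and 237 RPM in d4 PGCLCs. In d4c7 cells it was 5.42 and 3.45 RPM in FR10, 10.1 and 5.44 RPM in CsA, 7.42 and 5.51 RPM in FGF10, and 1.14 and 0 RPM in FGF2. E9.5c5 libraries had 23.5 and 15.3 RPM in FR10, and 17.5 and 20.4 RPM in CsA. The EpiLC libraries lay between the other uncultured groups and the cultured ones, and the d4c7 FGF2 libraries were the lowest of all.

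Lefty2 fell from ESCs to EpiLCs by a log2 fold change of -2.88 ± 0.41 (limma adjusted p = 0.00010) and rose from EpiLCs to d4 PGCLCs by 2.54 ± 0.41 (adjusted p = 0.00015). After median-ratio scaling these were -2.88 and 2.18, both still called. From d4 PGCLCs to d4c7 FR10 it fell by -5.20 ± 0.41 (adjusted p = 7.39e-07), from a mean of 199 ± 53.4 to 4.44 ± 1.39 RPM (SD, n = 2 each). Between E9.5c5 FR10 and d4c7 FR10 the difference was 1.90 ± 0.41 and was not called (limma adjusted p = 0.11). It was 2.19 without the 3 libraries numbered 2 and 1.61 without those numbered 1. Each of these fits leaves E9.5c5 FR10 with 1 library and takes its spread from the other groups.

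The share of Lefty1 in the reads of both genes does not depend on the scaling of the library. It was 31.9% and 32.9% in ESCs, 85.1% and 82.3% in EpiLCs, and 57.4% and 52.1% in d4 PGCLCs. Exact binomial 95% intervals, which cover counting error only, were 30.2% to 33.6% in ESC replicate 1, 82.8% to 87.2% in EpiLC replicate 1 and 53.9% to 60.8% in d4 PGCLC replicate 1. Lefty2 thus gave most of the Lefty reads in ESCs and Lefty1 most of them in EpiLCs, with d4 PGCLCs between.

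In the cultured groups Lefty1 gave the larger share in all 12 libraries. The d4c7 libraries had 81.3% and 91.0% in FR10, 80.7% and 85.9% in CsA, 59.2% and 83.5% in FGF10, and 95.1% and 100% in FGF2. E9.5c5 shares were 72.3% and 74.5% in FR10, and 79.7% and 72.2% in CsA. The 59.2% of d4c7 FGF10 replicate 1 rests on 29 and 20 inferred reads, with an interval of 44.2% to 73.0%.

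**Figure D2:**
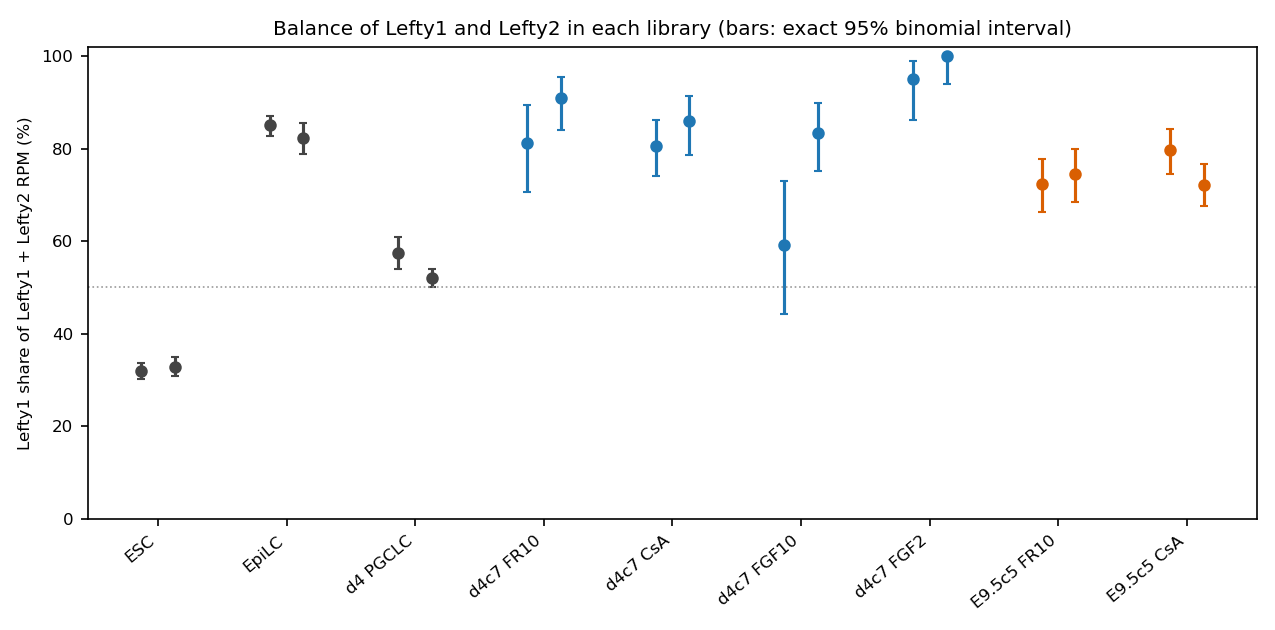
Share of Lefty1 in the summed reads of Lefty1 and Lefty2, in percent on the vertical axis, for each library by group. Points are libraries and vertical lines exact binomial 95% intervals from inferred reads. ESC libraries lie at 31.9% and 32.9%, EpiLC libraries at 85.1% and 82.3%, and every cultured library at 59.2% or above.

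Smad7, the intracellular inhibitor, was at 0 in 11 of 18 libraries. In all libraries together it had 15 inferred reads, at most 4 in any 1 library, or 0.219 RPM over all. With so few reads its groups were not compared, and the filter at 10 RPM kept it out of the main tests. The alternative without a filter included it, but no estimate of it is given.

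Set beside all genes tested, the counts of called members were as follows. From ESCs to EpiLCs 2 of 5 were called, Lefty2 and Gdf3, both lower, where 16% of all genes were called and 8.86% were called lower. From EpiLCs to d4 PGCLCs 3 of 5 were called, Lefty2 and Gdf3 higher and Tdgf1 lower, against 39.6% of all genes. Between d4 PGCLCs and ESCs 2 of 5 were called, Lefty1 higher and Tdgf1 lower, against 34.5%. The first 2 of these comparisons share the EpiLC libraries, and the third shares its libraries with both.

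From d4 PGCLCs to d4c7 FR10 3 of 5 members were called, all lower, where 15.2% of all genes were called and 8.22% were called lower. The median log2 fold change of the 5 members was -1.66, beside -0.07 over all genes. In d4 PGCLCs against EpiLCs the calls over all genes divided into 2629 higher and 1155 lower as deposited, and into 1646 and 1801 after median-ratio scaling. Against ESCs the split was 2328 and 971, and 1368 and 1504 after scaling. The scaling shifts the median of all genes from 0.34 to near 0 in both comparisons.

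**Figure D3:**
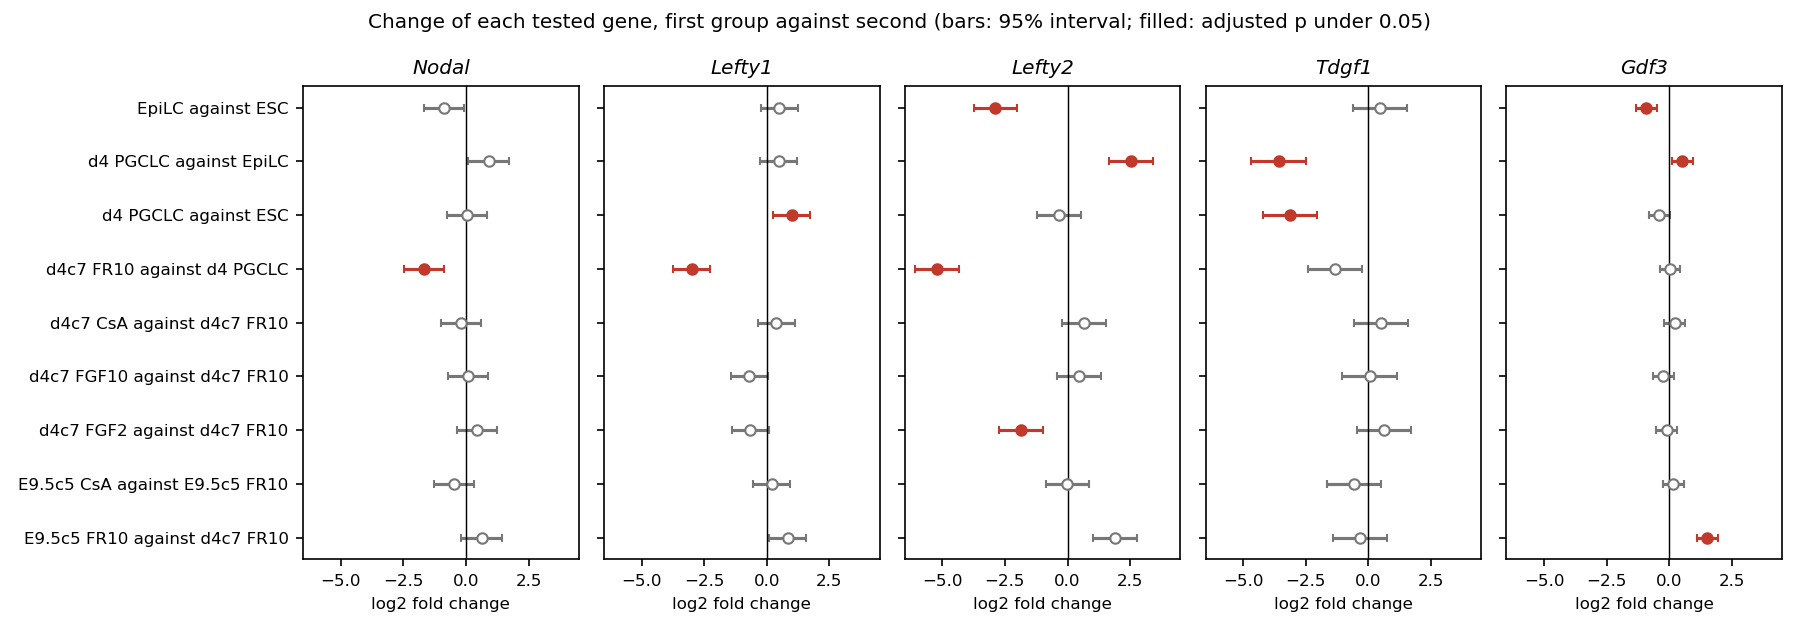
Log2 fold change of RPM + 1 for the 5 tested members in the 9 comparisons, with horizontal lines for the 95% interval of the limma fit. Filled points were called at an adjusted p under 0.05. Lefty2 ranged from -5.20 in d4c7 FR10 against d4 PGCLC to 2.54 in d4 PGCLC against EpiLC, while every interval of the CsA and FGF10 comparisons spans 0.

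The 3 other d4c7 conditions were each compared with the same FR10 libraries, so these comparisons share their controls. CsA called none of the 5 members, where 0.0314% of all genes, 3 in number, were called by limma. None of the members had an unadjusted p under 0.05. Lefty2 had the largest estimate, 0.66 ± 0.41 (95% interval -0.21 to 1.54), Tdgf1 had 0.50 (-0.59 to 1.58), Lefty1 0.37 (-0.37 to 1.11), Gdf3 0.22 (-0.20 to 0.63) and Nodal -0.20 (-1.0 to 0.61). These intervals leave room for changes of more than 1 log2 unit in Lefty1, Lefty2 and Tdgf1. The 3 genes called were Sec61b and Hsp90b1, higher, and Dmtf1, lower, named because they were so few. None of the 3 groups with the widest spread is in this comparison, but they enter the shared estimate of the spread. Without their libraries numbered 2, the median moderated SD over genes was 0.287 in place of 0.381 and 968 genes (10.1%) were called. Without those numbered 1 it was also 0.287 and 964 genes were called. None of the 5 members was called in either fit.

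FGF10 called no member and no gene at all (0% of 9561; 477 genes and 0 members had an unadjusted p under 0.05). Lefty1 had the largest estimate, -0.69 ± 0.35 (95% interval -1.43 to 0.05), and the estimates of the other 4 members lay between -0.24 and 0.47.

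FGF2 called 1 of the 5 members, Lefty2, where 8.84% of all genes were called and 7.47% were called lower. Its 2 libraries held 3 inferred reads of Lefty2 in all, against 24 in FR10, a ratio of 0.102 with an exact 95% counting interval of 0.0196 to 0.334. The fitted log2 fold change was -1.87 ± 0.41 (limma adjusted p = 0.019). It was called after median-ratio scaling (-1.71, adjusted p = 0.030). The estimate was -1.32 without the 3 libraries numbered 2 and -2.42 without those numbered 1, fits that leave FGF2 with 1 library. The call was lost with 10 RPM added (-0.45, adjusted p = 0.21), with only these 4 libraries in the fit (0.18), without FR10 replicate 1 (0.19) and without FGF2 replicate 2 alone (0.15). Lefty1 had -0.66 ± 0.35 (adjusted p = 0.22), Nodal 0.45 ± 0.38, Tdgf1 0.63 ± 0.51 and Gdf3 -0.10 ± 0.20, none of them called. Lefty1 was called, at -0.95 (adjusted p = 0.041), without the 3 libraries numbered 1, a fit that called 37.1% of all genes. The median log2 fold change of all genes was -0.33, and the calls divided into 131 higher and 714 lower as deposited but 283 and 259 after scaling.

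In E9.5c5 cells, CsA against FR10 called no member and no gene (0% of 9561; 703 genes and 0 members had an unadjusted p under 0.05). The estimates were -0.49 ± 0.38 for Nodal, 0.20 ± 0.35 for Lefty1, -0.01 ± 0.41 for Lefty2, -0.57 ± 0.51 for Tdgf1 and 0.16 ± 0.20 for Gdf3. That of Tdgf1 rests on CsA replicate 2, with 7.16 RPM: it was 0.63 without that library, and -1.76 (called, adjusted p = 0.0089, beside 6.84% of all genes) without CsA replicate 1. The CsA effect was also compared between the 2 cell sources. No member and no gene was called in that difference (616 genes had an unadjusted p under 0.05), and the difference was largest for Tdgf1, at -1.06 ± 0.73 (adjusted p = 0.87). It was -2.13 and called (adjusted p = 0.019, beside 2.92% of all genes) without the 3 libraries numbered 1, and 0.0077 without those numbered 2. Between E9.5c5 FR10 and d4c7 FR10 the 5 members had a median of 0.84, beside -0.20 over all genes, and Gdf3 alone was called.

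The same m220-5 feeder cells were used for cultured PGCLCs and E9.5 germ cells. Of 13 feeder and fibroblast markers, 9 were tested, and 4 were called higher in d4c7 FR10 than in d4 PGCLCs, Dcn, Col3a1, Loxl1 and Col1a2. None was called lower. In that comparison 15.2% of all genes were called, and 670 of 9561 were called higher. Col3a1 stood at 0.939 and 0 RPM in d4 PGCLCs, 68.9 and 31.8 RPM in d4c7 FR10 and 10.3 and 0 RPM in d4c7 FGF2, where it was called lower than in FR10, as was Cxcl12. Between FGF2 and FR10, 8.84% of all genes were called and 7.47% were called lower. Dcn was at 0 in both d4 PGCLC libraries and at 76.7 and 69.4 RPM in d4c7 FR10. Lum was at 0 in both libraries of every group, and Thy1 in both libraries of every cultured group. The summed level of the 13 genes was 792 to 841 RPM in d4 PGCLCs, 862 to 941 RPM in d4c7 FR10, 184 to 503 RPM in d4c7 FGF2, 337 to 524 RPM in E9.5c5 FR10 and 197 to 765 RPM in E9.5c5 CsA. It was highest in ESCs, which had no sort, at 1708 to 1732 RPM, through Fn1 and Vim, so the sum is not specific to feeders. The part of these cells in the changes of Nodal, Lefty1 and Lefty2 was not tested.

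Other genes of the pathway were taken from 6 lists with 55 genes, of which 29 were tested. Among the 29, Gdf1 and Otx2 reached 10 RPM in EpiLCs only, and Fst and Hhex in ESCs only. These genes passed the filter only through the group where they were high. Their calls against that group, and the counts that include them, are therefore partly set by the filter. From ESCs to EpiLCs 6 of the 29 rose and 1 fell, where 16% of all genes were called. Their median log2 difference was 0.24, beside 0.01 over all genes. Among them Gdf1, a ligand that pairs with Nodal, went from 1.92 ± 1.41 to 31.4 ± 0.06 RPM (3.56 ± 0.55, limma adjusted p = 0.00019). Pcsk6, a protease that cleaves pro-Nodal, fell by -1.98 ± 0.42. The target gene Otx2, also an epiblast marker, rose by 3.19 ± 0.46. Skil, which encodes the Smad repressor SnoN, rose by 2.39 ± 0.35, Tgif2, another repressor of Smad targets, by 1.17 ± 0.21 and the Smad partner Foxh1 by 0.73 ± 0.22. The Foxh1 call was lost when any 1 of the 4 libraries was left out.

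From EpiLCs to d4 PGCLCs 8 of the 29 rose and 8 fell, where 39.6% of all genes were called, with a median of 0.11 beside 0.34 over all genes. Gdf1 fell by -4.69 ± 0.55, Otx2 by -4.82 ± 0.46 and Tgif1, a repressor of Smad targets, by -2.76 ± 0.39. Fst, which encodes the Activin-binding follistatin, fell by -2.67 ± 0.48, while its relative Fstl1 rose by 3.40 ± 0.41 and Nomo1, an antagonist of Nodal in zebrafish, by 0.89 ± 0.33. Smad2 rose by 1.12 ± 0.31, Smad3 by 1.51 ± 0.36, Ski, a Smad repressor, by 1.83 ± 0.23, Tgif2 by 1.39 ± 0.21 and the pseudoreceptor Bambi by 2.49 ± 0.46. The target genes did not move one way. Beside Otx2, the homeobox gene Hhex was lower, at 0.939 and 0.193 RPM in d4 PGCLCs against 3.81 and 4.64 RPM in EpiLCs, a call lost when any 1 of the 4 libraries was left out. Lhx1, another homeobox gene, was higher, at 6.11 and 7.72 RPM against 0 and 0.387 RPM. After median-ratio scaling 15 of the 16 calls remained and that of Nomo1 was lost. Without EpiLC replicate 2 or without d4 PGCLC replicate 1, 11 of the 16 remained.

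Against ESCs, d4 PGCLCs had 12 of the 29 higher and 7 lower, where 34.5% of all genes were called, with a median of 0.38 beside 0.34 over all genes. After scaling 8 were higher and 7 lower, and the calls of the receptor Acvr2b, Smad2, Smad4 and Skil, named as the only ones, were lost. Without ESC replicate 1, 11 of the 19 calls remained.

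From d4 PGCLCs to d4c7 FR10 4 of the 29 rose and 3 fell, where 15.2% of all genes were called, with a median of 0.01 beside -0.07 over all genes. Fstl1 fell from 660 ± 138 to 41.4 ± 3.36 RPM (-3.95 ± 0.41, limma adjusted p = 9.59e-06) and Bambi from 54.0 ± 9.99 to 7.67 ± 0.11 RPM (-2.65 ± 0.46, adjusted p = 0.00085). Those that rose were Smurf1 and Nedd4l, which encode ubiquitin ligases that act on the pathway, by 2.07 ± 0.40 and 3.15 ± 0.61, Fst by 2.14 ± 0.48 and Gdf1 by 1.84 ± 0.55. Fst and Gdf1 stayed low in both groups. Fst stood at 0 to 0.193 RPM in d4 PGCLCs and 3.11 to 4.65 RPM in d4c7 FR10. Gdf1 stood at 0 to 0.579 RPM and 2.71 to 4.49 RPM, and Nedd4l at 0.939 to 3.48 RPM and 23.6 to 26.9 RPM. The Gdf1 call was lost when any 1 of the 4 libraries was left out, and that of Fst without d4 PGCLC replicate 1 or d4c7 FR10 replicate 1. None of the 7 tested Smads and nuclear partners and none of the 3 receptors was called. Without the 3 libraries numbered 2, and likewise without those numbered 1, 8 of the 29 were higher and 8 lower, with the 7 calls kept, where 31% and 30.8% of all genes were called.

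**Figure D4:**
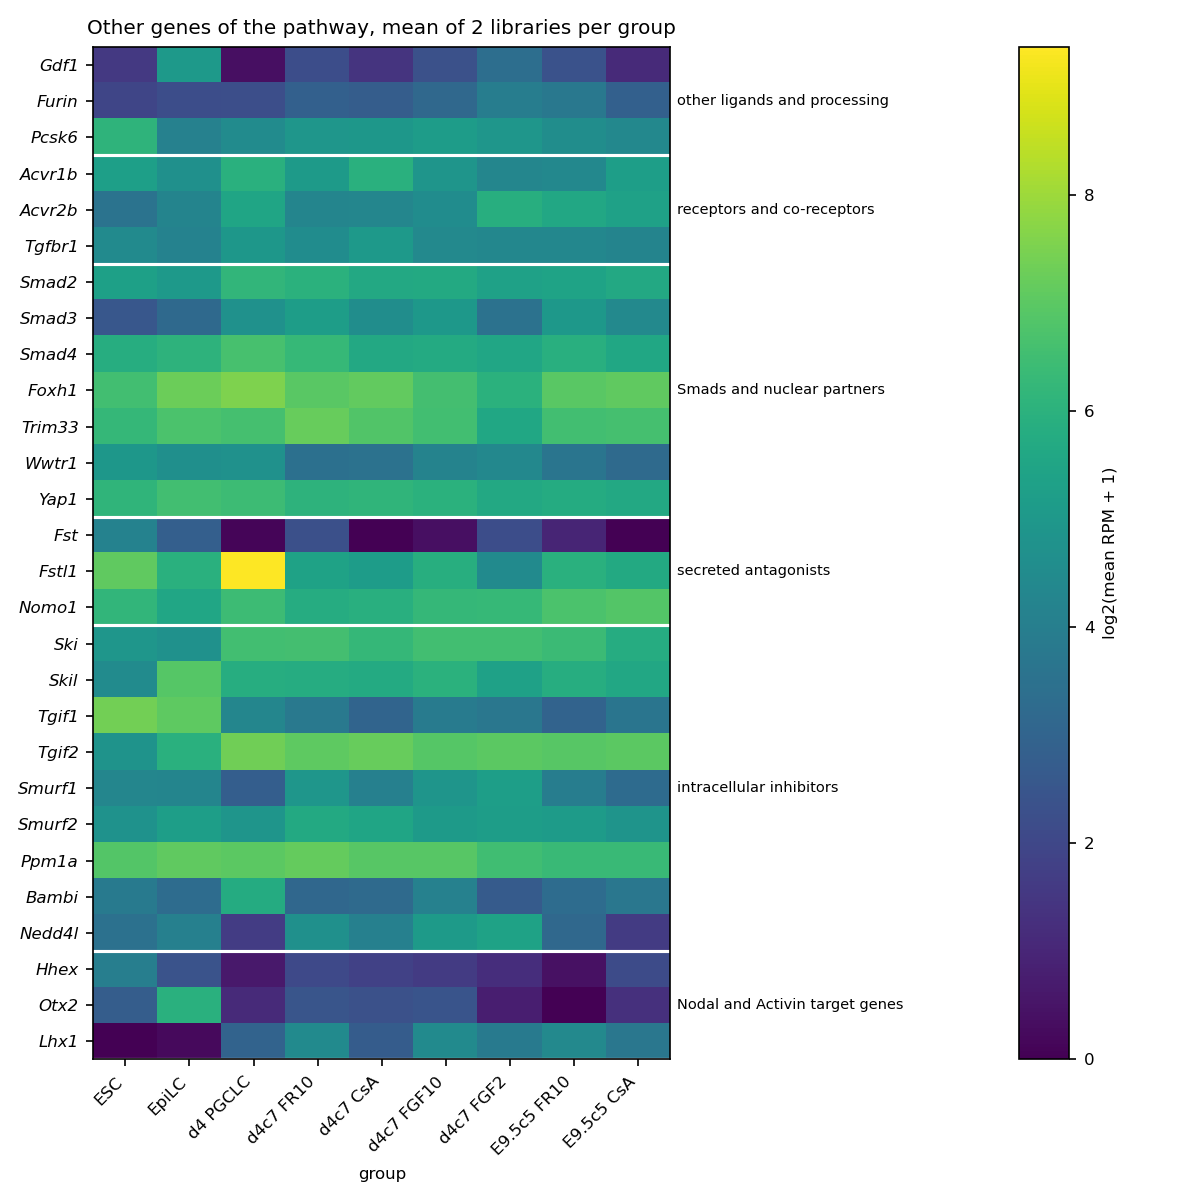
Mean level of the other tested pathway genes, with 1 left out, in the 9 groups, as log2(RPM + 1) in colour, with genes in rows by list and groups in columns. Fstl1 is highest in d4 PGCLC (660 RPM).

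In FGF2 against FR10, 4 of the 29 fell and none rose, where 8.84% of all genes were called, with a median of -0.39 beside -0.33 over all genes. Smad3 stood at 42.2 and 30.0 RPM in FR10 and at 11.4 and 9.48 RPM in FGF2 (-1.68 ± 0.36, limma adjusted p = 0.016). Trim33, which encodes a chromatin-binding partner of Smad2 and Smad3, stood at 163 and 129 RPM in FR10 and at 58.6 and 35.5 RPM in FGF2 (-1.65 ± 0.30, adjusted p = 0.0094). Foxh1 fell by -0.98 ± 0.22 and Otx2 by -1.65 ± 0.46. Otx2 was low in both groups, at 3.87 to 5.18 RPM in FR10 and 0.729 to 0.761 RPM in FGF2. In the FGF2 libraries 3 reads corresponded to 0.729 to 1.14 RPM. After median-ratio scaling Foxh1 (adjusted p = 0.060) and Otx2 (0.064) were no longer called, and without FR10 replicate 1 or without FGF2 replicate 2 none of the 4 was. Without the 3 libraries numbered 1, 2 of the 29 were higher and 11 lower, where 37.1% of all genes were called.

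With all 18 libraries, none of the 29 was called by limma in the CsA or FGF10 comparisons, or between E9.5c5 FR10 and d4c7 FR10. In d4c7 CsA against FR10, 1 was called higher and 2 lower without the 3 libraries numbered 2, and 0 higher and 2 lower without those numbered 1, each with 10.1% of all genes called. In E9.5c5 CsA against FR10, 0 were higher and 2 lower without CsA replicate 1 (6.84% of all genes called), and 1 higher and 2 lower without the 3 libraries numbered 1 (9.78%). Between E9.5c5 FR10 and d4c7 FR10, 0 were higher and 2 lower without E9.5c5 FR10 replicate 1 (2.71%), and 2 higher and 10 lower without the 3 libraries numbered 1 (23.3%).

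The other 26 pathway genes did not reach 10 RPM in 2 libraries. The classical mesendoderm targets were among them, of which some are named here with their values known: T reached at most 4.63 RPM, Mixl1 2.32 RPM, Gsc 2.60 RPM and Eomes 10.2 RPM in any library. Of the Activin and TGF-beta ligands, Inhba reached 3.16 RPM, Inhbb 2.28 RPM and Tgfb1 0.301 RPM. The secreted Nodal antagonist Cer1 reached 0.774 RPM, and the receptor Acvr1c was at 0 in every library.

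Across the 18 libraries, the Pearson correlation of log2(RPM + 1) was 0.86 for Lefty1 with Lefty2, 0.78 for Nodal with Lefty2 and 0.70 for Nodal with Lefty1, while Gdf3 had -0.09 with Nodal and -0.49 with Tdgf1. These are descriptions over libraries that share group, strain and culture. The tested genes most like each member by this measure were Atxn2l, Cggbp1 and Vprbp for Nodal (each 0.90), Rbmx (0.92), Chmp2b and Rps6ka6 (0.91 each) for Lefty1, and Igf2bp2 (0.95), Cachd1 (0.94) and Lhpp (0.92) for Lefty2. For Tdgf1 they were Bzw2 and Gins2 (0.97 each) and Atf4 (0.96), and for Gdf3 the ribosomal protein genes Rps4x and Rpl29 (0.89 each) and Dhrs7b (0.82).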

How the data were processed

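SC3-seq values of 18 mouse libraries were deposited by the authors as RPM, reads scaled to one library total, with 1 value per gene; the unit comes from the file naming and from totals of 999098 to 999617 per library. Build mm10 and the tools TopHat 1.4.1, Cufflinks 2.2.0 and cutadapt 1.3 are listed in the submitters' processing notes, without their roles, and how reads shared by genes were counted is not given in the sources used here. Of 34896 listed genes, 46 had no value and 34850 were used. Genes with at least 10 RPM in at least 2 libraries, 9561 in all, were tested with limma 3.58.1 in R 4.3.3 (lmFit, then eBayes with a trend) on log2(RPM + 1), with 1 mean per group over all 18 libraries and Benjamini-Hochberg adjustment over all genes tested. The model was tested on simulated data, 9561 genes of which 200 were changed in d4c7 CsA against d4c7 FR10. It called 34.3% of those changed 2-fold, 80.6% of those changed 4-fold and 95.5% of those changed 8-fold, and 7.89% of its calls were genes left as they were. The values were drawn as normal, with the same spread of a gene in every group, and only genes averaging above 10 RPM in these groups were changed. The rates therefore do not cover Nodal and Lefty2, whose means were lower there, or groups of unequal spread. Depth was inferred from the RPM of 1 read, the most frequent low value of a library refined over its whole multiples. It was used only for read numbers, counting intervals and floors. These cover counting error only, since amplified reads are not independent molecules. The members and gene lists were chosen with earlier results of these data known. All members are named, and of each other list up to 4 called genes per comparison by smallest p, with others only as values; the 3 genes most like a member exclude predicted genes and small RNAs. Groups and replicates follow the labels. Alternatives were median-ratio scaling, 0.1 or 10 RPM added in place of 1, a filter at 50 RPM or none, the replicate number as a block, a fit of only the groups compared, leaving out each library and, added after seeing the data, leaving out 3 libraries at once, those numbered 2 or those numbered 1 of the groups with the widest spread (d4c7 FGF2, E9.5c5 FR10 and E9.5c5 CsA). Sequences were read from RefSeq promoter windows and GENCODE M21 transcripts. For 1 pathway gene, the calls are counted in its list and the values are not reported here.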

Additional observations from a re-analysis of the deposited data

How the results depend on the processing

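Of 655 estimates of the 5 members under alternative settings, 582 kept their direction and their side of the threshold, 23 lost a call, 22 gained one and 28 changed sign. All of those that changed sign were not called as deposited. Low read numbers limit Nodal, Lefty2 in culture and Smad7, and 2 libraries a group limit every comparison.

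The number of members called is given here with the share of all genes called in the same fit. Between EpiLCs and ESCs it went from 2 to 4 (33.3% of genes), and between d4 PGCLCs and EpiLCs from 3 to 5 (56.9%), with only the 2 groups in the fit. Between d4 PGCLCs and ESCs it fell from 2 to 1 without a filter (17.1%), and was 1 when any 1 library was left out (20.8% to 24.3%). From d4 PGCLCs to d4c7 FR10 it went from 3 to 4 with 10 RPM added (18.4%) and with only the 2 groups (25.1%). It was 2 with a filter at 50 RPM (17.1%), where Nodal was not tested. In FGF2 against FR10 it fell from 1 to 0 with 10 RPM added (10.2%) and with only the 2 groups (0%). Whether the Lefty2 call was kept when 1 library was left out depended on the library. In E9.5c5 CsA against FR10 it was 0 to 1 when 1 library was left out (6.84% for the 1) and 1 without the 3 libraries numbered 1 (9.78%). Between E9.5c5 FR10 and d4c7 FR10 it was 0 with only the 2 groups (0%). Whether the Gdf3 call was kept when 1 library was left out depended on the library. For the difference of the CsA effects it was 1 without the 3 numbered 1 (2.92%). Fits with fewer libraries have fewer degrees of freedom, and a group left with 1 library is assumed to vary like the others.

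The number of genes called ranged over the alternatives from 826 without EpiLC replicate 2 to 3182 with only the 2 groups for EpiLCs against ESCs (1525 as reported). It ranged from 2256 (filter at 50 RPM) to 5438 (only the 2 groups) for d4 PGCLCs against EpiLCs (3784), and from 1974 to 5245 under these settings against ESCs (3299). The filter at 50 RPM tested only 4713 genes, so its low counts are larger shares. They are 47.9% against EpiLCs and 41.9% against ESCs, beside 39.6% and 34.5% as reported. For d4c7 FR10 against d4 PGCLCs (1456) it was 573 without d4 PGCLC replicate 1 and 2964 without the 3 libraries numbered 2. It was 0 with only the 2 groups and 968 without those 3 for CsA (3), and at most 39, without a filter, for FGF10 (0). FGF2 (845) had 0 with only the 2 groups, 5 without FR10 replicate 1, 75 without FGF2 replicate 2, 1722 without FGF2 replicate 1 and 3546 without the 3 libraries numbered 1. Without these 3, 935 were called for E9.5c5 CsA (0), 2229 for E9.5c5 FR10 against d4c7 FR10 (4) and 279 for the difference of the CsA effects (0).

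After median-ratio scaling, 3 uncalled estimates changed sign: Nodal in d4 PGCLC against ESC (-0.31), Gdf3 in FGF2 against FR10 (0.21) and Lefty2 in E9.5c5 CsA against FR10 (0.10). Without the 3 libraries numbered 1, Gdf3 in FGF2 against FR10 became 0.16 and Lefty2 in E9.5c5 CsA against FR10 0.39, neither called. Without those numbered 2, Tdgf1 in E9.5c5 CsA against FR10 became 0.50, and the difference of the CsA effects 0.0077 for Tdgf1 and 0.058 for Gdf3. The cause was not tested. Leaving out 1 library gave ranges that span 0 for Nodal in d4 PGCLC against ESC (-0.10 to 0.17), Gdf3 in d4c7 FR10 against d4 PGCLC (-0.076 to 0.13), Nodal and Tdgf1 in FGF10 against FR10 (-0.11 to 0.27 and -0.24 to 0.33) and Gdf3 in FGF2 against FR10 (-0.36 to 0.16). In E9.5c5 CsA against FR10 they were -0.021 to 0.42 for Lefty1, -0.30 to 0.28 for Lefty2 and -1.76 to 0.63 for Tdgf1. For the difference of the CsA effects they were -0.44 to 0.10 for Lefty1, -2.26 to 0.14 for Tdgf1 and -0.20 to 0.088 for Gdf3.

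Libraries with the same replicate number deviated together in some pairs of groups but not in most. Their deviations had correlations of -0.10 to 0.34 (median 0.0071) over 36 pairs of groups, 7 of them over 0.1. With the replicate block, 0 members were called in CsA against FR10 and all 50 member estimates kept their call and direction. The number of genes called went from 3 to 5 in CsA against FR10, from 0 to 1 in E9.5c5 CsA and from 4 to 8 between E9.5c5 and d4c7 FR10. In FGF2 against FR10 it went from 845 to 1163.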
